A study of Mus musculus with 2 samples.

Results

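The enzymes and regulators of the mevalonate pathway, of the sterol branch that follows it and of protein prenylation were examined in mouse peritoneal macrophages. The set held 40 genes, chosen by their place in the pathway, with earlier results of these data known. The array carried 81 probe sets with exactly 1 gene symbol among these 40, and they covered 38 genes of the 18093 genes on the array. No probe set gave Acat2 or Pdss1 alone, so these genes were not analysed here. The 40 genes fell into 8 of the steps up to isoprenoids, 14 of the sterol branch, 11 of prenyl transfer and 7 of other isoprenoid use.

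Peritoneal macrophages had received either LPS+CPN+GGOH or LPS+CPN, with 1 array per group. Both groups came from C57BL/6J mice, from which peritoneal cells were taken 3 days after thioglycolate, an irritant that recruits macrophages to the cavity. LPS (lipopolysaccharide, a component of bacterial walls) and the compound abbreviated CPN were thus present in both groups, and GGOH (geranylgeraniol) was the only labelled difference. What CPN stands for, the doses, the treatment times, the age and number of the animals and any pooling are not stated in the sources used here. The study asked which genes differed when GGOH was added.

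The mevalonate pathway turns acetyl-CoA into the isoprenoid diphosphates farnesyl diphosphate and geranylgeranyl diphosphate. Farnesyl diphosphate is committed to cholesterol by squalene synthase, or it is used, like geranylgeranyl diphosphate, to anchor small GTPases to membranes. Many genes of the pathway are switched on by the transcription factor SREBP2 when sterols run low. Macrophages need prenylated small GTPases for migration, phagocytosis and control of inflammatory signalling.

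The quartiles of the members' log2 ratios (LPS+CPN+GGOH minus LPS+CPN) were -0.27 and 0.12, against -0.28 and 0.29 for all measured genes. None of the 38 measured members was 2-fold higher with GGOH and none was 2-fold lower, while 5.5% of all 11518 measured genes were higher by 2-fold or more and 1.66% lower by as much. With 1 array per group no test was possible, so every value below describes these 2 arrays. The median log2 ratio (LPS+CPN+GGOH minus LPS+CPN) of the members was -0.02, against -0.01 for all measured genes. At a looser limit of 1.5-fold, 1 member was higher (Fdps) and 2 were lower (Fnta and Fntb), where 12.5% of all measured genes were higher and 7.82% lower. The members' counts therefore did not exceed the shares over all genes. Shares this small come to few of 38 genes, so the counts at 2-fold do not set the members apart. By step, 10 of 14 sterol branch genes had a ratio above 0 and 10 of 11 prenyl transfer genes had a ratio below 0, where 51.4% of all measured genes lay below 0. The sterol branch count depended on the scaling, with 4 of 14 above 0 with arrays divided by their medians and 7 of 14 after quantile normalization. Under these scalings the median of all measured genes was -0.17 and -0.07. The difference between the steps was not tested.

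A signal is the deposited MAS5 intensity of a probe set, a background-corrected summary of its probes, and signals of different probe sets are not compared with each other. The floor, a signal of 59.9, is the median of all non-control signals of both arrays, and a gene above it on 1 array alone has only a bound. The probe sets of 1 gene differed in their log2 ratios by a pooled SD of 0.45 over 4166 genes, and this SD serves as the error scale of a single ratio. It does not include the variation between cultures or animals. Of the 38 members, 30 lay within 1 such SD of 0 (78.9%, against 69.4% of all measured genes), and 36 were above the floor on both arrays.

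Markers of other cell types differed between the arrays. Of 9 fibroblast markers 8 were measured, all 8 of them higher with GGOH and 7 at least 2-fold. Their summed signal was 31844 with LPS+CPN+GGOH and 1375 with LPS+CPN, and Col1a1 was at 1053 with GGOH and 3.79, under the floor, with LPS+CPN. All 8 mesothelial markers were higher with GGOH, 6 of them at least 2-fold, with sums of 2214 with GGOH and 283 with LPS+CPN. Of these, 1 was above the floor with LPS+CPN. Macrophage markers were bright on both arrays (11 of 12 measured, with sums of 130829 with GGOH and 142148 with LPS+CPN) and had a median ratio of -0.16. They did not share a sign: 5 lay above 0 and 6 below, from -0.73 to 1.05. Cd163 was under the floor on both. Of 6 neutrophil markers 3 were measured, with summed signals over the list of 2364 with GGOH and 4486 with LPS+CPN. Most of this sum was S100a8, at 2216 with GGOH and 4282 with LPS+CPN, while S100a9 was under the floor on both arrays. Ngp and Elane were above the floor with LPS+CPN alone. No B cell or T cell marker was measured. The ratio of 5' to 3' signal was 0.80 with GGOH and 0.41 with LPS+CPN for Actb, and 1.05 with GGOH and 0.50 with LPS+CPN for Gapdh. In such bulk RNA, fewer cells of a type and less RNA per cell cannot be told apart. The part of these other cells and of RNA quality in the members' ratios was not tested.

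**Figure D1:**
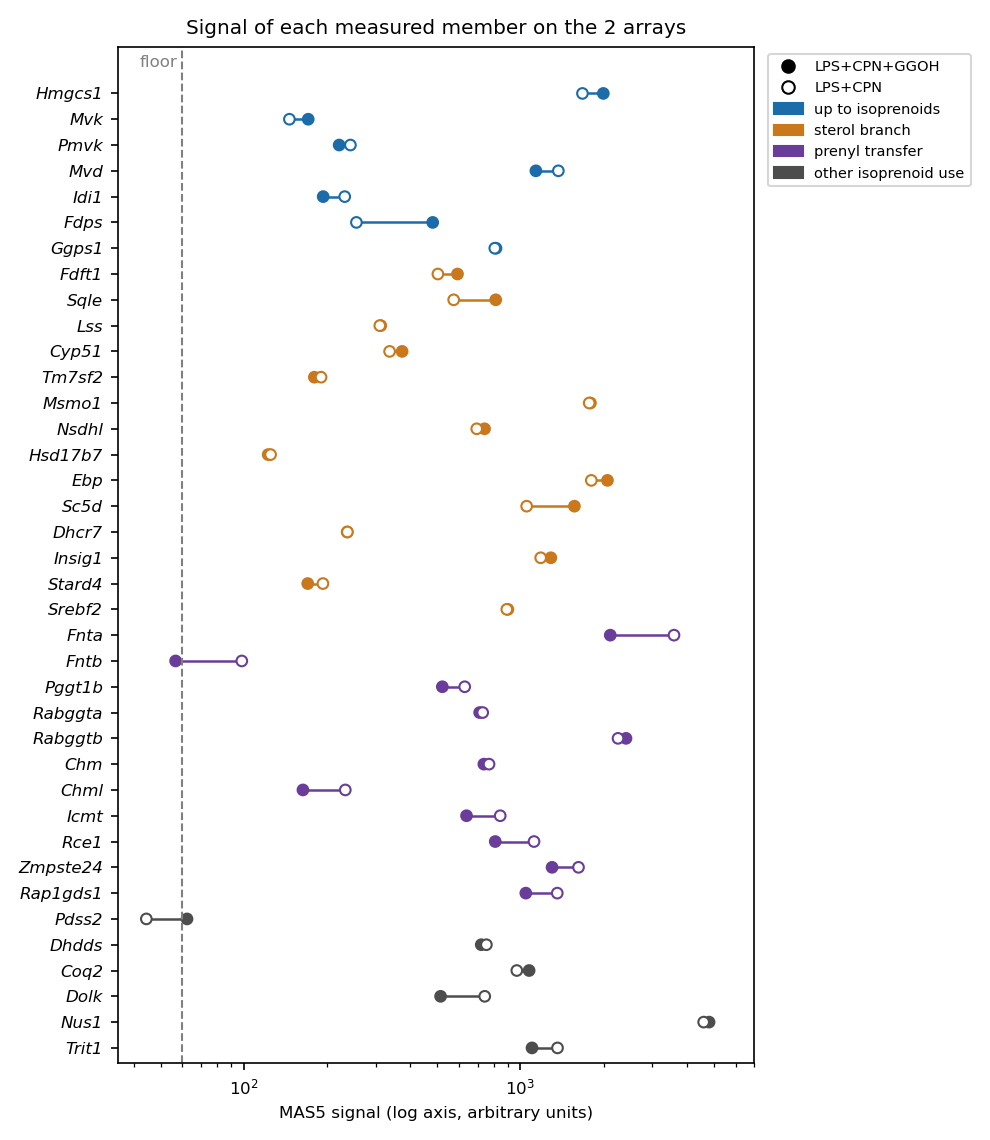
MAS5 signal (log axis, arbitrary units) of the probe set that gives each member's value, with LPS+CPN+GGOH as filled and LPS+CPN as open circles, coloured by step. The widest gaps are at Fdps (482 with GGOH), Fnta (2113 with GGOH) and Fntb, whose GGOH signal of 56.7 lies under the floor (dashed line); levels of different genes are not comparable.

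Promoter sequences are shown because genes of this pathway are known to be regulated jointly through their promoters and because the steps differed in the sign of their ratios. RefSeq windows from 250 bases before to 50 bases after a start (GRCm38.p6) were used for 33 of the 40 members. Windows of 1 chromosome were left out of the search and of the shares over all genes. Fdps, Sqle and Fnta were among the members without a window. On both strands, 3 motifs were searched: TCACNCCAC, a form of the sterol regulatory element bound by SREBPs, CCAAT, bound by NF-Y, and GGGCGG, bound by Sp1, factors known to act beside SREBPs. The windows of 4 members are printed with every match in capitals (ATTGG and CCGCCC are the motifs read on the opposite strand), and in them no base lay in more than 1 match. Hmgcs1 (chr13:119690101-119690400, plus strand) is shown as the only 1 of these 33 with all 3 motifs, Idi1 (chr13:8885356-8885655, plus strand) as a member whose probe sets disagreed, Sc5d (chr9:42264251-42264550, minus strand) as the sterol branch gene with the highest ratio, and Fntb (chr12:76837217-76837516, plus strand) as a prenyl transfer gene with a low one.
Hmgcs1: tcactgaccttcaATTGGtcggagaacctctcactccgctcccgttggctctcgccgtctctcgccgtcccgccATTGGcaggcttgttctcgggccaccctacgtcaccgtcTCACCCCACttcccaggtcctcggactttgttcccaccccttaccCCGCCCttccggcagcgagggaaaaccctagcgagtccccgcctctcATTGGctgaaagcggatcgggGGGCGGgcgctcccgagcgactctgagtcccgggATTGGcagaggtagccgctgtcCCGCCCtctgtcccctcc
Idi1: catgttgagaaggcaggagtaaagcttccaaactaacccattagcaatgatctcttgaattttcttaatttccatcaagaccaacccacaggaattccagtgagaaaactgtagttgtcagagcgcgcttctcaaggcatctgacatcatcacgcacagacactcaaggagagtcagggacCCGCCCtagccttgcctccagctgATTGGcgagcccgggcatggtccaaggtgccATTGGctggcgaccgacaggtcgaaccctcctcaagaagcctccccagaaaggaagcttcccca
Sc5d: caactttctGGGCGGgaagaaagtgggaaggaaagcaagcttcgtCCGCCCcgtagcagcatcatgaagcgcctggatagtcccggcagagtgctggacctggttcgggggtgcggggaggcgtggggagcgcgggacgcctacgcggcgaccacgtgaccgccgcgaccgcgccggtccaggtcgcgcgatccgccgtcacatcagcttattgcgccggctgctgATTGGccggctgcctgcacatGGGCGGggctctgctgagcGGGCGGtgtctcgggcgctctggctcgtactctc
Fntb: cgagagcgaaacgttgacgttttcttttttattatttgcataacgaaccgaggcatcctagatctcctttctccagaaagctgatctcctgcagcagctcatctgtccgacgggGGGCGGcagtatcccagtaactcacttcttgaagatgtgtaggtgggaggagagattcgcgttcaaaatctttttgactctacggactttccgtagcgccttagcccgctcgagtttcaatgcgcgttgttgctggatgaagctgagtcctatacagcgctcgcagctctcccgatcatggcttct

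The Hmgcs1 window held 1 sterol regulatory element match, 4 CCAAT matches and 3 GGGCGG matches. The Idi1 window held 2 CCAAT matches and 1 GGGCGG match, and the Sc5d window held 1 and 4. The Fntb window held 1 GGGCGG match and no other. Among genes of the sterol branch, all 11 with a window carried CCAAT and all 11 carried GGGCGG. Matches to CCAAT were found for 6 of 7 genes of the steps up to isoprenoids, 3 of 8 genes of prenyl transfer (Rabggtb, Rce1 and Zmpste24) and 3 of 7 genes of other isoprenoid use. For GGGCGG the counts were 5 of 7, 5 of 8 and 4 of 7 in these steps. TCACNCCAC was found for 1 of the 33 members with a window, Hmgcs1. It was found for 0 of 11 sterol branch genes, 0 of 8 of prenyl transfer and 0 of 7 of other isoprenoid use. Other forms of the sterol regulatory element were not searched, so these counts do not show that the element is absent. Over all genes with a window, CCAAT occurred in 41.1%, GGGCGG in 38.2% and TCACNCCAC in 1.44%. These matches describe the letters of the windows (any window of a gene counted), and neither binding nor a link to the values below was tested.

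Among the steps up to isoprenoids, 4 of 7 measured genes had a ratio above 0 and 3 below, with a median of 0.01. Fdps, which makes farnesyl diphosphate at the branch point of the pathway, had a signal of 482 with LPS+CPN+GGOH and 255 with LPS+CPN. It was 1.89-fold higher with GGOH (log2 ratio 0.92), the highest ratio of any member, and 93.6% of all measured genes had a lower ratio. This value rests on a single probe set, since the other Fdps probe set was under the floor on both arrays (11.8 with GGOH and 21.4 with LPS+CPN).

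The genes next to it in the pathway, Ggps1 and Idi1, had lower ratios than Fdps on their brightest probe sets. Ggps1, which extends farnesyl diphosphate to geranylgeranyl diphosphate, had signals of 816 with LPS+CPN+GGOH and 808 with LPS+CPN, a log2 ratio of 0.01. Its 4 probe sets all lay above 0, from 0.01 to 0.45. Idi1, the isomerase that interconverts the pathway's 5-carbon units, had 194 with GGOH and 232 with LPS+CPN (log2 ratio -0.26) on its brighter probe set. On its other probe set it had 180 with GGOH and 100 with LPS+CPN (0.85), so the direction for Idi1 depended on the probe set.

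Of the earlier enzymes, Hmgcs1 and Mvk had probe sets of both signs, and Mvd had 1 sign. Hmgcs1, which makes HMG-CoA, had 1994 with LPS+CPN+GGOH and 1676 with LPS+CPN (log2 ratio 0.25), but another bright probe set gave 1311 with GGOH and 2071 with LPS+CPN (-0.66). Its probe set of the _x_at class, a class prone to bind other transcripts, was nearly equal, at 2040 with GGOH and 2065 with LPS+CPN. Mvk, mevalonate kinase, had log2 ratios of 0.23 and -0.57 on its 2 probe sets. Pmvk, phosphomevalonate kinase, had 221 with GGOH and 243 with LPS+CPN (-0.14). Mvd, the decarboxylase that ends the mevalonate stage, was lower on both of its probe sets, with 1138 with GGOH and 1371 with LPS+CPN on the first (-0.27), and 888 with GGOH and 1482 with LPS+CPN on the other (-0.74).

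In the sterol branch, the median of 14 genes was 0.05, and ratios ran from -0.18 to 0.57. Sc5d, the desaturase that introduces a double bond into the late sterol ring system, had 1568 with LPS+CPN+GGOH and 1054 with LPS+CPN. It was 1.49-fold higher with GGOH, just short of 1.5-fold, although a dimmer probe set gave 53.5 with GGOH, under the floor, and 76.3 with LPS+CPN. Sqle, squalene epoxidase, the oxygen-requiring step at the start of the sterol branch, had 814 with GGOH and 574 with LPS+CPN, a 1.42-fold difference on its only probe set. These were the 2 sterol genes farther than 1 probe-set SD from 0, and the other 12 lay within it.

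Fdft1, squalene synthase, which commits farnesyl diphosphate to sterols, had 592 with LPS+CPN+GGOH and 503 with LPS+CPN (log2 ratio 0.24). Its brightest probe set, of the _x_at class, was equal at 1021 with GGOH and 1022 with LPS+CPN. Lss, which cyclizes squalene epoxide to lanosterol, had 313 with GGOH and 310 with LPS+CPN. The demethylation enzymes after lanosterol were also close on their brightest probe sets. Cyp51, the sterol demethylase, had 373 with GGOH and 337 with LPS+CPN. Msmo1, the methylsterol oxidase, had 1791 with GGOH and 1773 with LPS+CPN. A dimmer Msmo1 probe set had 95.7 with GGOH and 29.2, under the floor, with LPS+CPN, at least 1.60-fold higher with GGOH. Nsdhl, the sterol dehydrogenase that acts with Msmo1, had a log2 ratio of 0.09.

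Apart from Sc5d, the later enzymes of ring modification lay within 1 probe-set SD of 0. Ebp, the sterol isomerase, had 2064 with LPS+CPN+GGOH and 1805 with LPS+CPN (log2 ratio 0.19), and Tm7sf2, a sterol reductase, had 180 with GGOH and 190 with LPS+CPN (-0.08). Dhcr7, the reductase that ends 1 route to cholesterol, had 237 on both arrays. Hsd17b7, a ketosteroid reductase, had 122 with GGOH and 125 with LPS+CPN on its brightest probe set. Its dimmer probe sets crossed the floor in opposite directions, at 122 with GGOH against 44.4 with LPS+CPN, and at 6.82 with GGOH against 70.9 with LPS+CPN.

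The branch also held 3 genes of sterol regulation and transport. Insig1, the membrane protein that holds back SREBP processing and is itself an SREBP target, had 1288 with LPS+CPN+GGOH and 1184 with LPS+CPN (log2 ratio 0.12). Srebf2, which encodes SREBP2, had 901 with GGOH and 893 with LPS+CPN (0.01), and a dimmer probe set gave a ratio of -0.45. Stard4, a sterol transport protein, had a ratio of -0.18 on its brightest probe set, at 170 with GGOH and 193 with LPS+CPN. This was the lowest ratio of the branch, but its other probe sets gave 0.48 and 0.71, so its sign was not settled.

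Genes of prenyl transfer had the lowest median of the 4 steps, at -0.38, and a range from -0.77 to 0.10. Below 0 lay 10 of 11 genes, against 51.4% of all measured genes. Of their measured probe sets, 13 of 15 lay below 0, and no share over all probe sets was taken. The macrophage markers ran from -0.73 to 1.05, with a median of -0.16. With that median set to 0, the median of prenyl transfer was -0.22. Fnta, the alpha subunit shared by farnesyltransferase and geranylgeranyl transferase type I, had 2113 with LPS+CPN+GGOH and 3592 with LPS+CPN, 1.70-fold lower with GGOH. Its other probe set also gave a lower value, at 1194 with GGOH and 1865 with LPS+CPN (log2 ratio -0.64), and 4.04% of all measured genes had a lower ratio than Fnta. Fntb, the beta subunit of farnesyltransferase, had 56.7 with GGOH, under the floor, and 98.3 with LPS+CPN, at least 1.64-fold lower on its only probe set. Thus the genes for both subunits of farnesyltransferase were the only members past 1.5-fold on the lower side at the deposited scaling. With a pseudocount Fntb was not, and with arrays divided by their medians Chml, Dolk and Rce1 were too, when 14.6% of all measured genes were.

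Beside the shared subunit Fnta, geranylgeranyl transferase type I has its own beta subunit. Its gene, Pggt1b, whose product helps attach geranylgeranyl groups to proteins with a CAAX tail, had 522 with LPS+CPN+GGOH and 629 with LPS+CPN (log2 ratio -0.27). Its other measured probe sets gave -0.50 and 0.12. For the Rab enzyme (type II), Rabggta had 712 with GGOH and 731 with LPS+CPN, and Rabggtb had 2408 with GGOH and 2254 with LPS+CPN (0.10), the only gene of the step above 0. The Rab escort protein genes Chm and Chml had ratios of -0.06 and -0.51. Chml had 164 with GGOH and 233 with LPS+CPN on its only probe set above the floor. Both genes encode close relatives that present Rab proteins to the transferase.

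All 4 genes for later handling of prenylated proteins lay between -0.32 and -0.47. Rce1, the protease that trims the CAAX tail after prenylation, had 811 with LPS+CPN+GGOH and 1120 with LPS+CPN (log2 ratio -0.47). Icmt, which methylates the exposed cysteine, had 639 with GGOH and 845 with LPS+CPN (-0.40). Zmpste24, a metalloprotease known for processing prelamin A, had 1302 with GGOH and 1622 with LPS+CPN (-0.32), and Rap1gds1, which binds prenylated GTPases, had 1046 with GGOH and 1359 with LPS+CPN (-0.38). Each of these 4 values rests on 1 measured probe set, and Icmt, Zmpste24 and Rap1gds1 lay within 1 probe-set SD of 0.

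**Figure D2:**
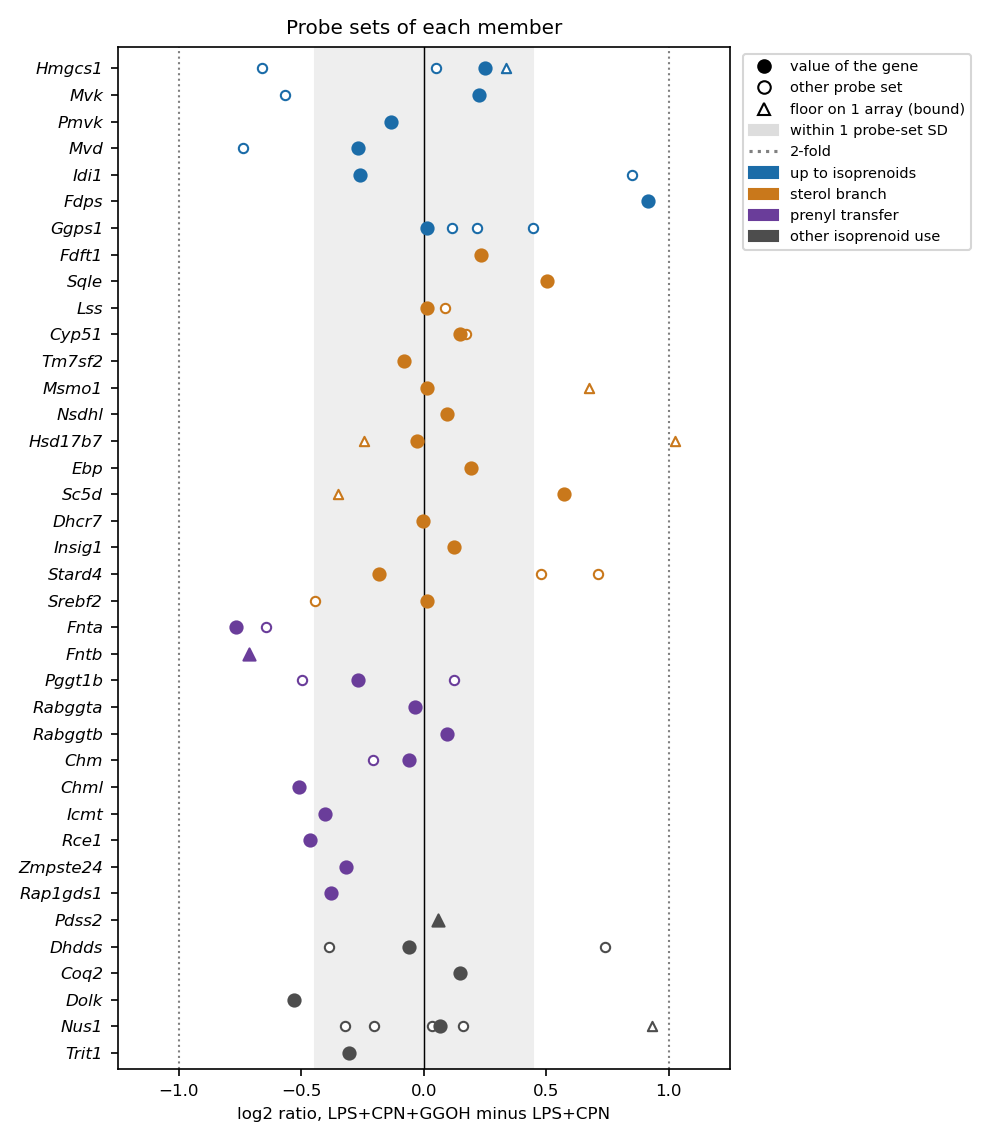
Log2 ratios (LPS+CPN+GGOH minus LPS+CPN) of the measured probe sets of each member, excluding the _x_at class, with the gene's value filled, other probe sets open and probe sets at the floor on 1 array as triangles. The grey band spans 1 probe-set SD of 0.45 on each side of 0, and 13 of 15 prenyl transfer probe sets lie left of 0.

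Other uses of isoprenoids had a median of -0.00236 over 6 genes. Dolk, which phosphorylates dolichol for glycan synthesis, had 515 with LPS+CPN+GGOH and 743 with LPS+CPN, 1.44-fold lower with GGOH on its only probe set. Trit1, which adds an isopentenyl group to transfer RNA, had 1101 with GGOH and 1362 with LPS+CPN (log2 ratio -0.31). The subunits of the enzyme that builds the dolichol chain, Dhdds and Nus1, had ratios of -0.06 and 0.06. Dimmer probe sets of Dhdds gave -0.39 and 0.74, so its sign was not settled. Nus1 had 4809 with GGOH and 4597 with LPS+CPN, and its 6 probe sets ran from -0.32 to 0.93, where the highest is a bound.

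For coenzyme Q, Coq2, which joins the isoprenoid tail to the ring, had 1075 with LPS+CPN+GGOH and 970 with LPS+CPN (log2 ratio 0.15). Pdss2, a subunit of the tail synthase, had 62.3 with GGOH, barely above the floor, and 44.4 with LPS+CPN, so it was at least 1.04-fold higher. Its other probe sets were under the floor on both arrays.

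Over all members, the agreement of probe sets limits what single ratios show. Of 17 members with several measured probe sets, 7 had the same sign in all of them and 10 had both signs. The members with 1 sign included Ggps1, Lss, Cyp51 and Msmo1 above 0, and Mvd, Fnta and Chm below 0. The pooled SD between a member's probe sets was 0.37 over 14 members, against 0.45 over all genes.

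The position of the steps depended on how the arrays were scaled. The deposited values were scaled to an equal trimmed mean, and dividing each array by its median moved the median of all genes by -0.16. Under that scaling 11 of 11 prenyl transfer genes lay below 0, where the median of all measured genes was itself -0.17. Setting macrophage markers to a median of 0 moved the median of all genes by 0.15, to 0.14. With it, 13 of 14 sterol branch genes lay above 0 and 8 of 11 prenyl transfer genes below. The sterol branch median minus the prenyl transfer median was 0.43 at the deposited scaling, a difference computed after the values were seen. Dividing by array medians or by macrophage markers shifts all ratios of genes above the floor alike, so it could not change this difference. Under quantile normalization it was 0.39 and after lowess 0.41, and under the changes of floor, pseudocount and probe sets it lay between 0.39 and 0.49.

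**Figure D3:**
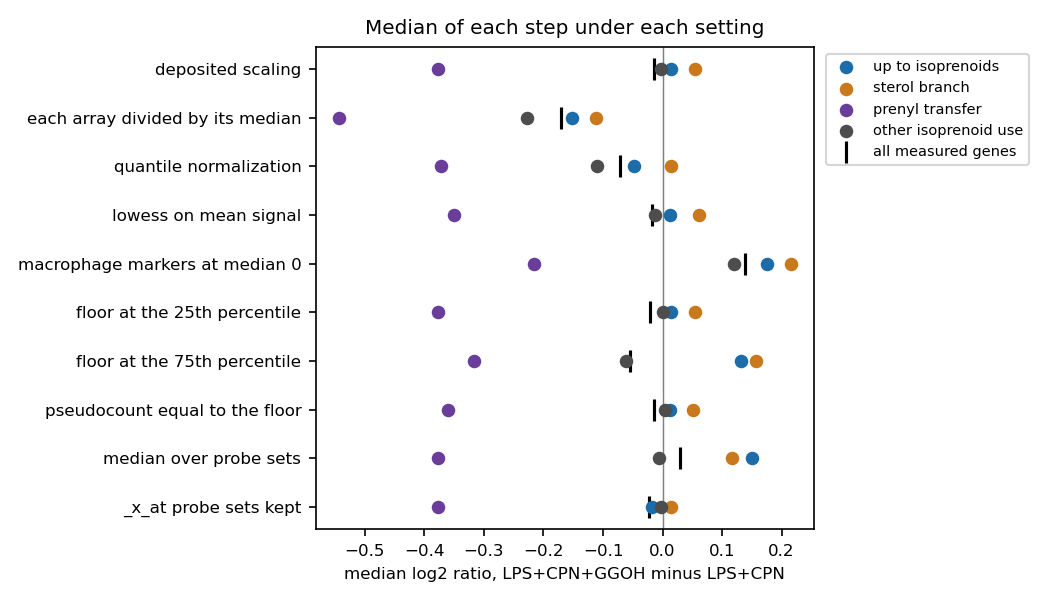
Median log2 ratio (LPS+CPN+GGOH minus LPS+CPN) of each step (circles) and of all measured genes (bars) at the deposited scaling and under 9 other settings. The prenyl transfer median lies lowest under every setting shown, between -0.54 and -0.22, while the other medians move around 0 with the scaling.

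Neighbouring pathway genes gave a frame for these values. Over all measured genes, 5.5% were at least 2-fold higher and 1.66% lower. In lists as short as those below, a count of none does not set the genes apart. Of 14 measured genes that control SREBPs, none was 2-fold apart, and the median was -0.05. Srebf1, which encodes SREBP1, was 1.51-fold lower with GGOH, at 1117 with LPS+CPN+GGOH and 1688 with LPS+CPN, and Insig2, a relative of Insig1, had a log2 ratio of 0.36. The ubiquitin ligase gene Rnf139 and Vcp, which encodes a segregase of membrane proteins, both had a ratio of -0.24. Of 17 genes of later coenzyme Q and dolichol steps, none was 2-fold apart, with a median of 0.19. The highest was Coq8a, a kinase-like coenzyme Q protein, at 0.50, followed by Alg5, which charges dolichol with glucose, at 0.49 and the methyltransferase gene Coq3 at 0.40, and the lowest was Coq4, another coenzyme Q protein, at -0.43.

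Of genes that bind or recycle prenylated proteins, 7 were measured, with a median of 0.06, a range from -0.31 to 0.19 and none past 1.5-fold. Over all measured genes, 12.5% were at least 1.5-fold higher and 7.82% lower, which comes to few of 7 genes. Pcyox1, the lyase that breaks down prenylcysteine, had 3284 with LPS+CPN+GGOH and 3832 with LPS+CPN (log2 ratio -0.22), and Pde6d, which binds prenylated proteins in the cytosol, had 969 with GGOH and 850 with LPS+CPN (0.19). Rabac1, which binds prenylated Rab proteins, had a ratio of 0.11. The difference of this list from the transferases was not tested.

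Of 9 measured sterol ester and oxysterol genes, 2 were at least 2-fold higher and none lower, with a median of 0.26. Over all measured genes the shares were 5.5% higher and 1.66% lower, and with 9 genes nothing particular to the list can be read from its count. Ch25h, which makes 25-hydroxycholesterol, a sterol that holds back SREBP processing, had 161 with LPS+CPN+GGOH and 57.0 with LPS+CPN, at least 2.68-fold higher. Cyp7b1, which clears oxysterols by hydroxylation, had 253 with GGOH and 36.3 with LPS+CPN, at least 4.22-fold higher. Nceh1, a cholesteryl ester hydrolase, was 1.81-fold higher, at 5519 with GGOH and 3048 with LPS+CPN, and Acat1, the mitochondrial thiolase, was 1.59-fold higher. The fibroblast and mesothelial markers given above were higher on the same array, and their part in these values was not tested.

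**Figure D4:**
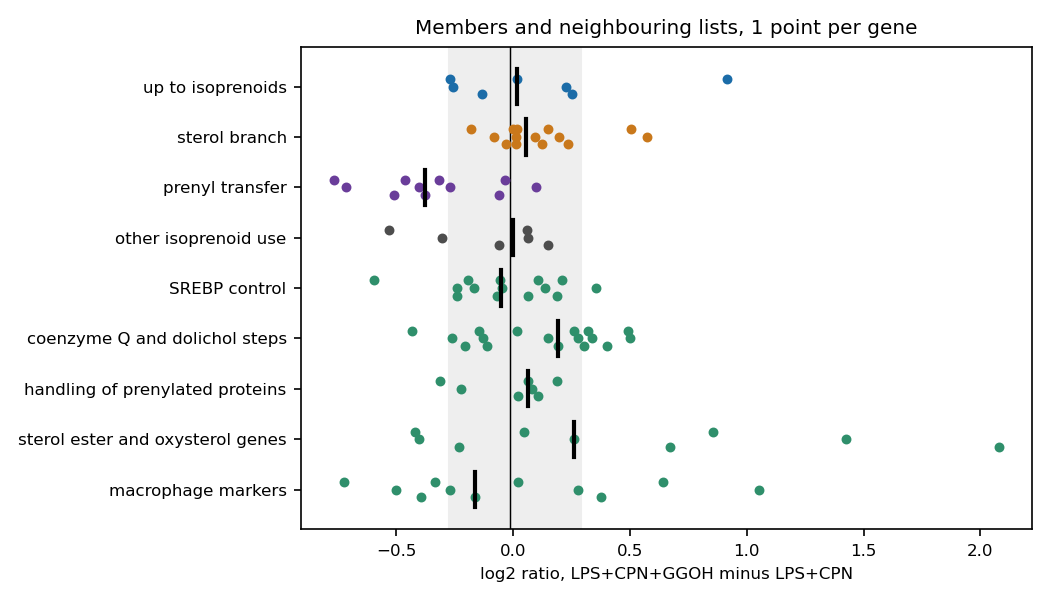
Log2 ratios (LPS+CPN+GGOH minus LPS+CPN) of measured genes in the 4 steps, in 4 neighbouring lists and among macrophage markers, 1 point per gene, with the list median as a thick bar. The grey band spans the quartiles of all measured genes (-0.28 to 0.29) and the thin line their median; prenyl transfer has its median of -0.38 outside the band, and Ch25h and Cyp7b1 (bounds) lie past 1.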

How the data were processed

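The authors deposited linear signal intensities of 45101 probe sets for each of the 2 arrays. The submitters' processing notes name MAS5, but give neither its version nor its target value. The mean of the central 96% of signals was 500.004 on each array, so the deposited intensities had been scaled alike. Detection calls were not used.

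Probe sets were named from the platform annotation. Control and _x_at probe sets were left out of gene values, leaving 32907 probe sets of 18093 genes. The floor was the 50th percentile of pooled non-control signals. A gene was represented by whichever of its probe sets was brightest on average (mean log2 signal), and signals were floored before log2. With 1 array per group there was no test, SE or p-value. The 1.5-fold and 2-fold limits describe size only. The calculation of ratios was tried on simulated signals, with known differences put into bright genes, all larger than any member's ratio. Members, lists, limits and settings were chosen with earlier results of these data known. The rule for naming genes was to account for all 40 members and, in each neighbouring list, up to 4 genes with the largest absolute ratios; 1 that the rule names is not reported here. Further settings were 4 scalings (array medians, quantile, lowess with span 0.4, macrophage markers), a lower floor (25th percentile) and a higher one (75th), a pseudocount, the median over probe sets, and _x_at probe sets kept. Python 3.11.15, pandas 2.3.3 and statsmodels 0.14.6 were used. The number of arrays limits the precision.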

Additional observations from a re-analysis of the deposited data

How the results depend on the processing

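No paired analysis was possible because each group had 1 array and the result comes from no test, and for the same reason no replicate could be left out. A single ratio was taken as moved past the probe-set SD, a median past that SD divided by the root of its number of genes, and a count past 1.5 times. With each array divided by its median, 5 members were at least 1.5-fold lower (Chml, Dolk and Rce1 joined Fnta and Fntb; 14.6% of all), and the medians were -0.20 for all members, -0.11 for the sterol branch, -0.54 for prenyl transfer and -0.23 for other isoprenoid use. After quantile normalization 2 members were at least 1.5-fold higher (Fdps and Sc5d) and 4 lower, when 9.35% of all measured genes were higher and 11.7% lower, with a median of -0.11 over all members. After lowess 2 were at least 1.5-fold higher (11.4% of all). With macrophage markers at 0, 1 member (Fdps) passed 2-fold on the higher side and 3 passed 1.5-fold (7.19% and 17.5% of all), and the medians were 0.14 for all members, 0.22 for the sterol branch and -0.22 for prenyl transfer. With the floor at the 75th percentile 26 members remained above it, 0 of them past 1.5-fold on the higher side and 1 (Fnta) on the lower. Of all genes measured there, 5.45% were higher and 6.55% lower by as much. Fdps then had a log2 ratio of 0.36 as a bound. With a pseudocount 1 member (Fnta) was at least 1.5-fold lower (6.93% of all). With the median over probe sets, Idi1 had a log2 ratio of 0.29, Sc5d 0.11 and Stard4 0.48. Over the settings Fnta ran from -0.93 to -0.60, Fntb from -0.86 to -0.44, Fdps from 0.36 to 1.08 and Sqle from 0.34 to 0.67. No member was 2-fold lower under any setting tried. The number of probe sets near the floor limits Fntb, Pdss2 and the dimmer probe sets of Hsd17b7, Sc5d and Msmo1.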
